A study of Homo sapiens with 6 samples.

Results

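Matricellular proteins are secreted into the extracellular matrix, where they act on cells and growth factors rather than building the scaffold itself. SPARC (osteonectin) is the best known of them. It binds collagen and calcium, and it weakens the attachment of cells to their matrix. Its relatives share a follistatin-like domain and a calcium-binding domain, and thrombospondins and tenascins do related work with unrelated structures. In colon tumors, SPARC and several of these proteins are known mainly as products of fibroblasts in the stroma, so a carcinoma cell line measures the part that tumor cells can make by themselves.

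The 10 genes described here were SPARC, its relatives SPARCL1, SPOCK1, SPOCK2, SMOC1, SMOC2 and FSTL1, the follistatin-like gene FSTL3, thrombospondin 1 (THBS1) and tenascin C (TNC). They were taken by symbol from a table of 58735 genes, and all 10 were listed. The group was chosen because SPARC was already known to fall in these data, so the values of the contrast are given for its members as a description, with no p-value.

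The data came from HCT116, an established human colorectal carcinoma line. RNA-seq was done on 3 control libraries (CTR), whose genotype is labelled WT, and on 3 libraries of cells that received miR-8485 mimics, short synthetic RNAs with the sequence of the miRNA. Per the study's methods, mimics were transfected at 50 nM and cells were taken after 48 h unless an assay had its own time, with none given for RNA-seq and no sequence or dose for the control. The study calls the replicates independent and biological, and all of them came from a single line. Expression was deposited as FPKM, which scales the fragments of a gene by its length and by the library's total, and the fragments behind each value could be recovered (17473874 to 17888110 per CTR library and 17710376 to 18480047 per miR-8485 library on listed genes). These levels are therefore relative ones. In a bulk sample, fewer cells that express a gene and less RNA per cell cannot be told apart.

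The epithelial identity of the line was visible in 6 of 9 marker genes, with EPCAM at 135 FPKM in CTR and 130 FPKM in miR-8485. Of these 6, KRT8, KRT18 and KRT19 were called lower and CDX2 higher in miR-8485, and the summed marker level was 2610 to 2840 FPKM in CTR and 1750 to 1840 FPKM in miR-8485. The intestinal markers VIL1, LGALS4 and CDX1 lay below 0.1 FPKM. Of 9 fibroblast markers, 7 had a mean below 0.1 FPKM, and DCN was listed at 0 in all 6 libraries. PDGFRB lay just above this level, at 0.124 FPKM in CTR and 0.105 FPKM in miR-8485. COL1A1 was well expressed, with means of 4.24 FPKM in CTR and 6.31 FPKM in miR-8485, while COL1A2, which encodes its partner chain, had 1 fragment in all libraries together. The fibroblast markers summed to 4.31 to 4.54 FPKM per CTR library and 6.36 to 6.56 FPKM per miR-8485 library, nearly all of it COL1A1. The part of these shifts in the results below was not tested.

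The seed of the mimic, its bases 2 to 8, reads ACACACA and pairs with TGTGTGT. A search for this word in the canonical 3′ UTR of each member (GENCODE release 44, GRCh38, sense strand, overlapping copies counted) found it in 5 of the 10 genes. A second word, ACACACG, is contained in the mimic itself from base 8 on, so it is not the word that pairs with the seed. It was taken up because an earlier account of these data had singled it out, and it was present in SPARC only. One stretch of 30 bases is shown for each gene with either word, because these genes were called lower, called higher or not called. Capitals mark the word.
SPARC, chr5:151663097-151663126, minus strand: ggaagtaacagACACACGatgttgtcaagg
FSTL1, chr3:120394596-120394625, minus strand: tgggctttctcTGTGTGTgtagttttgtaa
THBS1, chr15:39598044-39598073, plus strand: ccataaatgcgTGTGTGTctaaatacaaat
SPOCK1, chr5:136977961-136977990, minus strand: gaaagactgtaTGTGTGTgccttgcacaca
SPOCK2, chr10:72062535-72062564, minus strand: gcatgtgtgtaTGTGTGTgtgtgtgtggca
SMOC1, chr14:70032260-70032289, plus strand: ccacaggatcgTGTGTGTaggtggtgttgt
SPOCK2 held 9 copies of TGTGTGT in 3726 bases, most of them overlapping in the run shown, and FSTL1 held 2 overlapping copies in 4659 bases. THBS1, SPOCK1 and SMOC1 held 1 copy each, in 4097, 3356 and 2108 bases. SPARC, SPARCL1, SMOC2, FSTL3 and TNC held 0 copies. Of the 10672 tested genes with a canonical 3′ UTR, 28.9% held TGTGTGT and 4.01% held ACACACG. Among tested genes whose 3′ UTR was 0.8 to 1.25 times as long as that of SPARC (2475 bases, 1622 genes), the shares were 43.2% and 4.99%. In the same window around FSTL1, 61.8% held TGTGTGT, around THBS1 57.3% and around SPOCK2 55.3%. A matching word is a description of the sequence, and which 3′ UTRs the cells use was not measured.

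Only 4 of the 10 genes, FSTL3, SPARC, FSTL1 and THBS1, reached a mean of 1 FPKM over the 6 libraries, the level above which genes were tested. In CTR, FSTL3 was the highest of them at 22.2 ± 1.69 FPKM (SD, n = 3), followed by SPARC at 6.27 ± 0.322 FPKM, FSTL1 at 3.63 ± 0.372 FPKM and THBS1 at 2.39 ± 0.0382 FPKM (SD, n = 3 for each). The libraries of neighbors in this order did not overlap. In miR-8485 the order was FSTL3, THBS1, FSTL1 and SPARC, again with no overlap between neighbors. The other 6 genes lay between 0.0127 FPKM (SMOC1) and 0.174 FPKM (SPOCK2) in CTR, and among them each neighbor in the order overlapped the next. Thus HCT116 cells expressed SPARC itself, the activin binder FSTL3, FSTL1 and THBS1, while the proteoglycan genes SPOCK1 and SPOCK2, the SMOC genes, SPARCL1 and TNC were close to the limit of detection.

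**Figure D1:**
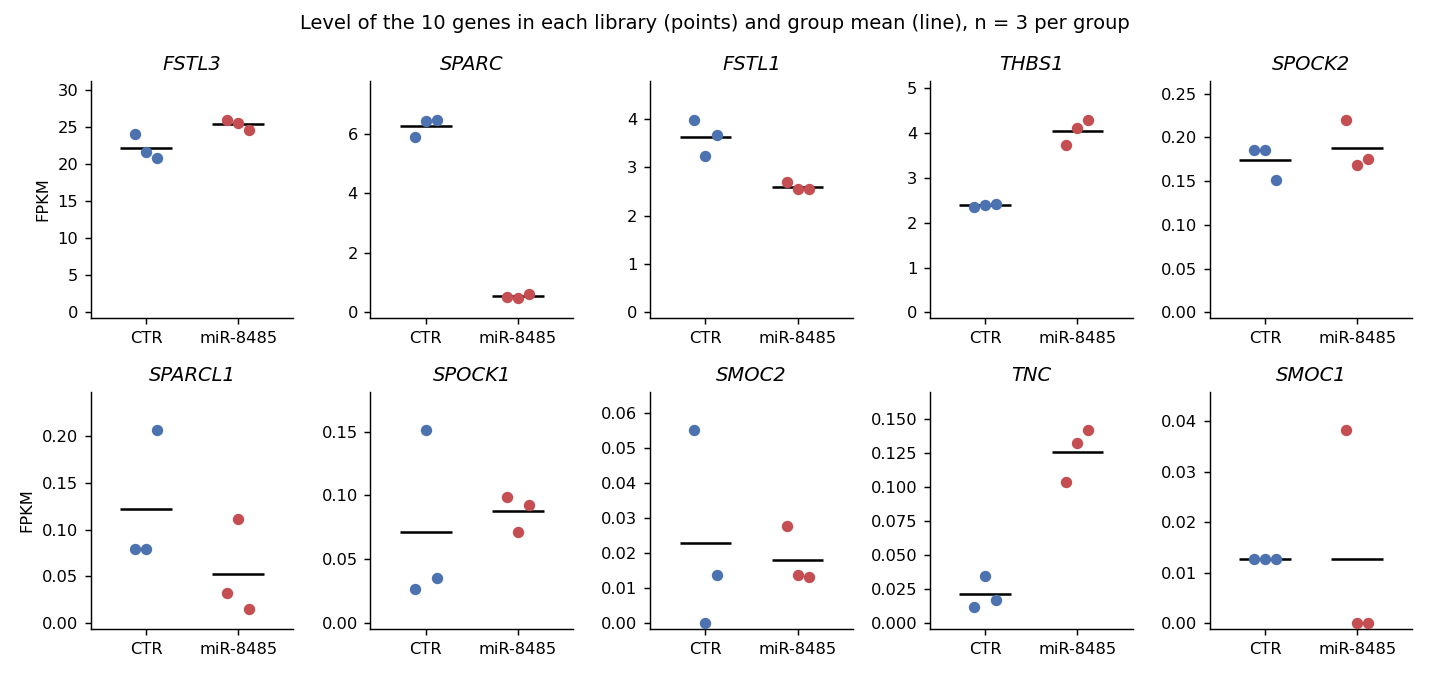
FPKM (vertical axis, one scale per gene) of the 10 genes in the 3 CTR (blue) and 3 miR-8485 (red) libraries, with the group mean as a line. SPARC, FSTL1, FSTL3, THBS1 and TNC show no overlap between the groups, while the other 5 genes overlap at levels of at most 0.220 FPKM.

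The tested members moved in both directions. In the fit of all tested genes, 2 of the 4 were called higher (THBS1 and FSTL3) and 2 lower (SPARC and FSTL1), against 29.1% and 30.5% of all 12349 tested genes, together 59.6%. Calls required an adjusted p below 0.05 (limma, Benjamini-Hochberg). The groups of libraries did not overlap for any of the 4, as for 66.5% of all tested genes (34.0% with all miR-8485 libraries below) and 34.6% of all genes above 0. Since SPARC was chosen from this contrast, nothing is read from these counts. Over all tested genes, log2 fold changes had a median of -0.0041 and their absolute values a median of 0.33, the scale on which the members can be placed.

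SPARC lies on chromosome 5 (hg38, minus strand, 151661096 to 151687165). It had 5.90, 6.44 and 6.47 FPKM in the 3 CTR libraries. In the miR-8485 libraries it had 0.519, 0.492 and 0.630 FPKM. Every miR-8485 library lay far below every CTR library, and the mean with the mimic was 8.72% of that in CTR. In fragments, 514, 563 and 566 in CTR stood against 45, 43 and 58 in miR-8485, so the low level still rests on a fair number of reads. The log2 fold change was -3.30 (standard error 0.12, 95% interval -3.58 to -3.03). Only 6 of the 12349 tested genes had a lower value. With each library left out in turn, it stayed between -3.40 and -3.24. Through the pseudocount of 0.1 FPKM this scale shrinks the change of low genes, and with a pseudocount of 1 the value was -2.23, while voom, limma's method for counts, gave -3.52 on the recovered fragments. An antisense gene, CLMAT3, overlaps SPARC with 10 fragments in CTR and 21 in miR-8485 over all libraries, and strand-specific counting was not stated.

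FSTL1 encodes a secreted glycoprotein with the follistatin-like and calcium-binding domains of the SPARC family. It lies on chromosome 3 (minus strand, 120392293 to 120451253). It was measured at 3.98, 3.24 and 3.67 FPKM in CTR and at 2.69, 2.55 and 2.55 FPKM in miR-8485. The miR-8485 libraries lay close together and below all CTR libraries, at 71.6% of the CTR mean. At -0.46 (standard error 0.09), the log2 change was far smaller than that of SPARC, and 2180 tested genes had a lower value. It was called lower in all 14 alternatives that kept it in the test, between -0.57 and -0.36. SPARC was 1.48 to 1.99 times as high as FSTL1 in the CTR libraries and 0.193 to 0.247 times as high in the miR-8485 libraries.

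THBS1, on chromosome 15 (plus strand, 39581079 to 39599466), encodes thrombospondin 1, which activates latent TGF-beta and binds the receptors CD36 and CD47. It moved the other way, from 2.35, 2.40 and 2.43 FPKM in CTR to 3.74, 4.12 and 4.3 FPKM in miR-8485. All miR-8485 libraries exceeded all CTR libraries, with a mean of 170% of that in CTR. The log2 fold change was 0.74 (standard error 0.08, 95% interval 0.55 to 0.92), and 1000 tested genes had a higher value. It was called higher in all 14 alternatives that kept it in the test, between 0.57 and 0.79. SPARC was 2.51 to 2.69 times as high as THBS1 in the CTR libraries and 0.119 to 0.147 times as high in the miR-8485 libraries, so the balance between these 2 matricellular genes turned over.

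FSTL3, on chromosome 19 (plus strand, 676365 to 683399), encodes a secreted inhibitor of activin. It had 24.1, 21.6 and 20.9 FPKM in CTR and 26, 25.6 and 24.6 FPKM in miR-8485. The groups were apart by a small margin, between 24.1 FPKM in CTR replicate 1 and 24.6 FPKM in miR-8485 replicate 3. The log2 fold change was 0.20 (standard error 0.06, 95% interval 0.05 to 0.34), within the range of most tested genes, since 8144 had a lower and 4204 a higher value. The call held in 8 of 15 alternatives. It was lost in the fit of all genes above 0, without the variance trend, without CTR replicate 2 or 3 (log2 fold change 0.18 and 0.15), without miR-8485 replicate 1 or 2 (0.18 and 0.19) and after rescaling to TPM, where the value was 0.08. Rescaling to TPM sets each library to the same sum and moved the median of all tested genes to -0.12. It left 35.6% of the called genes higher, against 48.8% with FPKM as deposited.

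**Figure D2:**
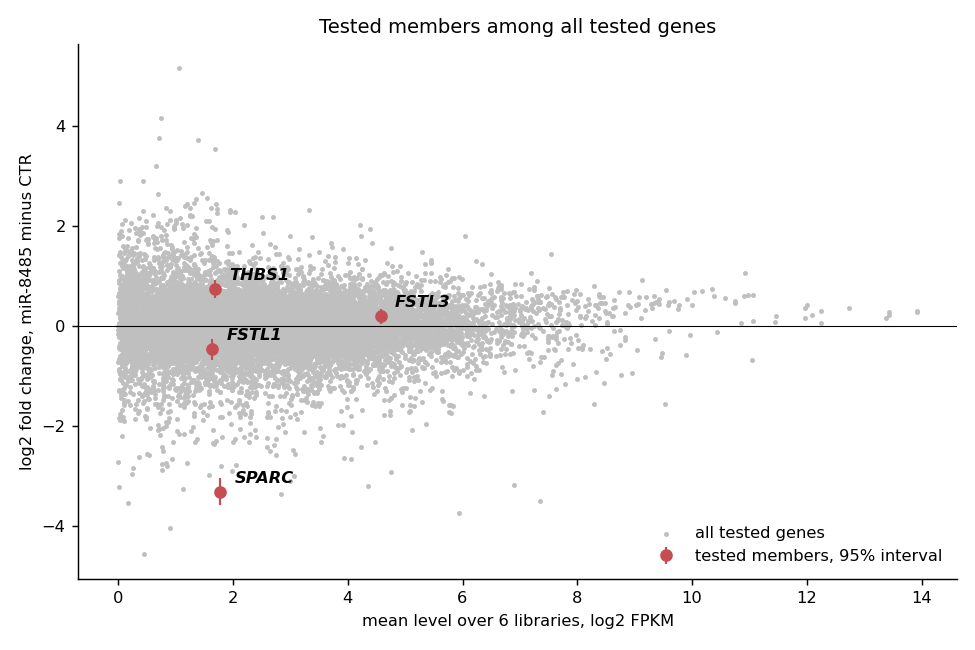
Log2 fold change (miR-8485 minus CTR, vertical axis) against the mean level over the 6 libraries (log2 FPKM, horizontal axis) for the 12349 tested genes in gray and the 4 tested members in red with 95% intervals. SPARC lies at -3.30 at the lower edge of the cloud, FSTL1 at -0.46, FSTL3 at 0.20 and THBS1 at 0.74.

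The sum over the 10 genes was close in both groups, at 33.9 to 36.7 FPKM per CTR library and 32.5 to 33.5 FPKM per miR-8485 library. Each miR-8485 sum lay below each CTR sum, by a small margin. The composition of the sum differed more. SPARC made up 16.1% to 19.1% of the sum in CTR and 1.48% to 1.94% in miR-8485, and FSTL3 made up 61.6% to 65.7% in CTR and 75.6% to 77.7% in miR-8485.

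The 6 members under 1 FPKM were fitted together with all 31768 genes above 0, of which 22.1% were called. Among the 19419 of these genes with a mean under 1 FPKM, 3.72% were called, and the libraries did not overlap for 14.3%. In voom, 26.6% of all genes above 0 and 7.52% of those under 1 FPKM were called. TNC was the only one of the 6 past the threshold. TNC encodes tenascin C, a large matrix glycoprotein of development, wounds and tumor stroma, and lies on chromosome 9 (minus strand, 115019578 to 115118257). Its fragments numbered 2, 6 and 3 in CTR and 18, 23 and 26 in miR-8485. In FPKM this was 0.0115, 0.0344 and 0.0172 against 0.104, 0.132 and 0.142, low in both groups and without overlap between them. The ratio of fragments per library total was 6.01, with an exact 95% interval of 3.15 to 12.6 that covers counting error only. The fitted log2 fold change depended on how such low values were treated, with 0.90 at the pseudocount of 0.1, 0.14 at a pseudocount of 1 and 2.53 in voom. The call was lost with a pseudocount of 0.01 and when replicate number entered as a block, and held in 11 of 13 alternatives.

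SPARCL1, or hevin, the nearest relative of SPARC, had 5, 5 and 13 fragments in CTR and 2, 7 and 1 in miR-8485. The groups overlapped, and the ratio of 0.429 had a counting interval of 0.182 to 0.936. With a log2 fold change of -0.54 (95% interval -1.44 to 0.36), its direction was not settled by these libraries. SPOCK1 and SPOCK2 encode testican proteoglycans. SPOCK1 had 3, 17 and 4 fragments in CTR and 11, 8 and 11 in miR-8485, so that CTR replicate 2 alone exceeded the miR-8485 libraries. SPOCK2 varied little, with 22, 22 and 18 fragments in CTR and 26, 20 and 22 in miR-8485. Its ratio was 1.08 with a counting interval of 0.755 to 1.55, and its 3′ UTR held the most copies of TGTGTGT among the members. SMOC1 and SMOC2 encode basement membrane proteins that modulate BMP signaling. SMOC1 had 1 fragment in every CTR library against 3, 0 and 0 with the mimic, and SMOC2 had 4, 0 and 1 against 2, 1 and 1, too few to show a difference in either direction. A pseudogene on the other strand of SMOC1, RPL7AP6, had 1000 fragments in CTR and 1349 in miR-8485.

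**Figure D3:**
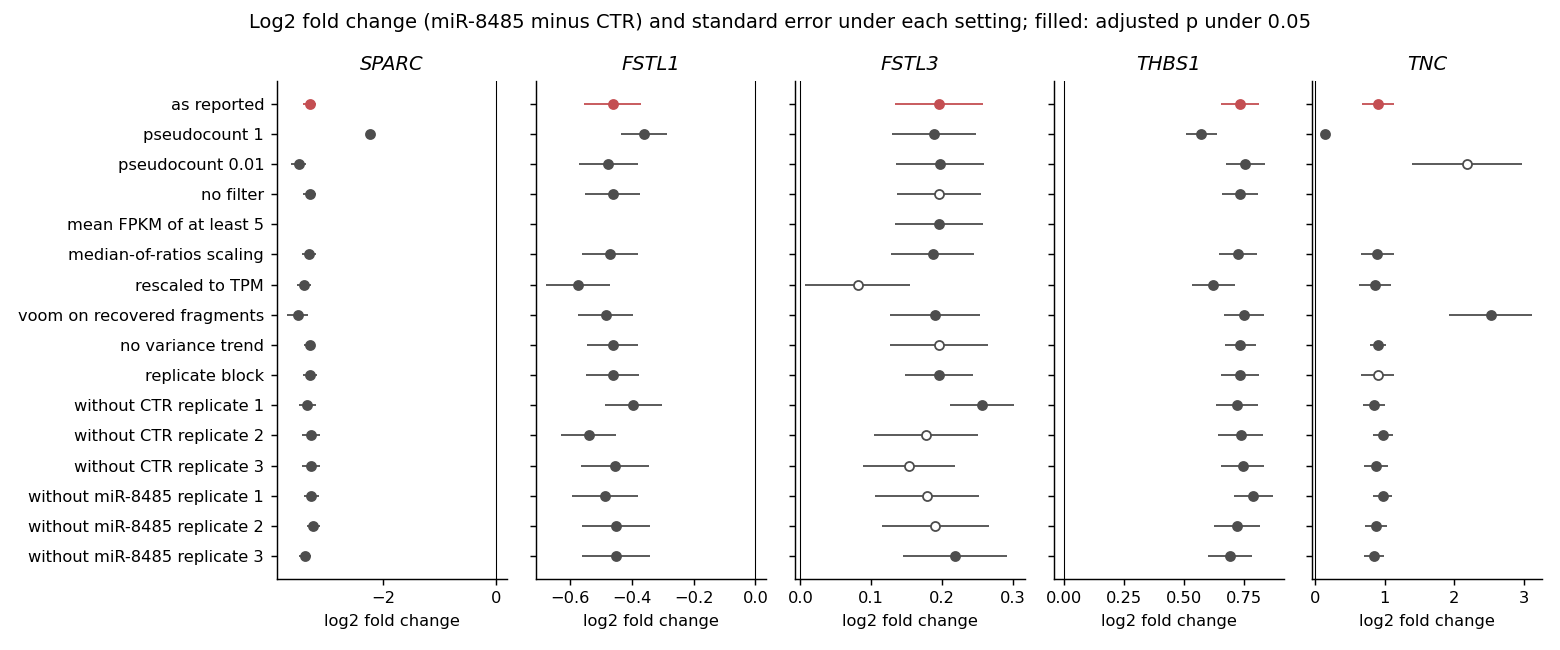
Log2 fold change (horizontal axis, miR-8485 minus CTR) and standard error of the 4 tested members and TNC under each way of processing the data (rows), with filled points where the adjusted p was under 0.05 and the value as reported in red. SPARC and FSTL1 stay below 0 and THBS1 above 0 throughout, FSTL3 loses its call in several rows, and the size of the TNC value runs from 0.14 to 2.53.

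Genes of related function were then described from 7 lists. The first held the 11 other genes of the SPARC, follistatin, thrombospondin and tenascin families. Only THBS3, a thrombospondin, reached 1 FPKM. It rose from 1.48, 1.12 and 1.04 FPKM in CTR to 2.75, 2.34 and 2.93 FPKM with the mimic (log2 fold change 1.09, standard error 0.16, limma adjusted p = 7.9e-04). The other 10 lay below 1 FPKM. For 5 of them, SPOCK3, FSTL4, THBS4, TNN and TNXB, all miR-8485 libraries were above all CTR libraries, as for 8.24% of genes at this level, and for FST all were below (6.03%). In the limma fit of all genes above 0, none of the 10 was past the threshold. In voom on recovered fragments 3 were called higher, namely FSTL4, TNN and TNXB, against 4.17% of genes at this level. TNXB had the most fragments of these, 105, 79 and 90 in CTR and 152, 129 and 180 in miR-8485. FSTL4 had 10, 10 and 7 in CTR and 23, 49 and 39 in miR-8485.

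Of 10 matricellular genes of other families, 3 were tested. CCN1 and CCN2 are close relatives that are both known as early targets of growth and mechanical signals, and they moved apart. CCN1 rose from 4.70, 4.01 and 4.70 FPKM in CTR to 13.9, 13.0 and 12.8 FPKM in miR-8485 (log2 fold change 1.55, standard error 0.08, adjusted p = 6.5e-06 in limma). CCN2 fell from 1.94, 2.43 and 2.95 FPKM to 0.881, 0.969 and 1.12 FPKM (log2 fold change -1.21, standard error 0.18, adjusted p = 8.8e-04). CCN3 had a log2 fold change of -0.50 and did not pass the threshold (adjusted p = 0.061). For 4 of the 6 genes above 0 but under 1 FPKM, all miR-8485 libraries were below all CTR libraries, as for 6.03% of genes at this level. In voom 3 of the 6 were called lower and 0 higher, against 3.35% and 4.17% of genes at this level. Osteopontin (SPP1), chosen for mention after its values were seen, was called lower in voom and alone in the limma fit of all genes above 0. It had 51, 64 and 47 fragments in CTR and 22, 16 and 13 in miR-8485. POSTN was listed at 0 in all libraries.

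Among receptors of matricellular proteins, every called gene was lower. Of 24 listed, 14 were tested, of which 11 were called lower and 0 higher, with 3 not called, and all 14 had a log2 fold change below 0. Their median log2 fold change was -0.51, against -0.0041 for all tested genes and 30.5% of all tested genes called lower. The median of the list per library, relative to the CTR mean, was -0.55 to -0.47 in miR-8485 and -0.068 to 0.023 in CTR. The 4 with the largest changes were 3 integrin alpha chains and CD47, the thrombospondin receptor. ITGA6 fell from 22.5, 21.9 and 23.6 FPKM to 5.97, 6.80 and 8.11 FPKM (log2 fold change -1.70, adjusted p = 1.4e-05 in limma), ITGA3 from 53.1, 53.6 and 54.4 FPKM to 18.2, 17.1 and 17.9 FPKM (-1.59), and ITGA2 from 24.6, 26.1 and 27.0 FPKM to 9.23, 9.04 and 10.04 FPKM (-1.45). CD47 fell from 5.25, 5.14 and 5.54 FPKM to 2.51, 2.51 and 2.94 FPKM (log2 fold change -0.98, adjusted p = 5.5e-05). CD36, the other well known thrombospondin receptor, had 12 fragments in CTR and 7 in miR-8485 over all libraries. Of CD47 and CD36, only CD47 was well expressed, and it fell while THBS1 rose. The 3 tested receptors that were not called, LRP1, SDC1 and DIP2A, had log2 fold changes of -0.013, -0.012 and -0.14.

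Collagens, which SPARC binds, and other scaffold proteins showed no common direction. Of 19 genes, 8 were tested, 3 were called higher and 3 lower, against 29.1% and 30.5% of all tested genes. The median log2 fold change was near 0, and lay at 0.16 with the filter at 5 FPKM and at -0.11 after rescaling to TPM. Among the tested genes, COL12A1 had the largest change and fell from 2.03, 1.95 and 2.06 FPKM in CTR to 0.709, 0.753 and 0.989 FPKM in miR-8485 (log2 fold change -1.22, adjusted p = 5.8e-04 in limma), and HSPG2, or perlecan, had -0.53 (adjusted p = 0.0060). COL1A1 rose from 4.38, 4.301 and 4.05 FPKM to 6.27, 6.40 and 6.27 FPKM (log2 fold change 0.56, adjusted p = 1.3e-04), and COL18A1 had 0.30 (adjusted p = 0.0096). After rescaling to TPM, 1 gene of this list was called higher instead of 3. Below 1 FPKM, COL5A2, chosen for mention after its values were seen, rose from 24, 31 and 10 fragments in CTR to 87, 92 and 78 in miR-8485. Its log2 fold change was 1.53 (adjusted p = 0.023 in the limma fit of all genes above 0). It was the only 1 of 11 scaffold genes under 1 FPKM called in that fit, against 3.72% of genes at this level. In voom 2 of the 11 were called higher and 2 lower, against 4.17% and 3.35% of genes at this level. Of 15 genes that fold and crosslink collagen, 13 were tested, with 8 called lower and 1 higher (69.2% called, against 59.6% of all tested genes) and a median of -0.28. The median was -0.52 with the filter at 5 FPKM and -0.17 with no filter. Lower were the transglutaminase TGM2 (log2 fold change -1.43), the lysyl oxidase LOXL2 (-1.25), the lysyl hydroxylase PLOD2 (-1.20) and the prolyl hydroxylase P4HA2 (-0.90), each with no overlap between the groups and an adjusted p between 8.0e-06 and 4.6e-05. LOXL2 went from 13.0, 13.8 and 14.1 FPKM to 5.65, 5.28 and 6.04 FPKM.

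A further list held activin and TGF-beta ligands, among them those that FSTL3 binds or THBS1 activates, with latency proteins and receptors. Of 24 genes, 16 were tested, 8 were called lower and 2 higher (62.5% called, against 59.6% of all tested genes), with a median of -0.33. The median was -0.06 with the filter at 5 FPKM. The activin receptors ACVR1B and ACVR2B fell by 1.21 and 0.95 on the log2 scale (adjusted p = 1.6e-05 and 0.0043 in limma), while ACVR2A had a mean of 2.19 FPKM in both groups and was not called. BMP4, the most abundant ligand of the list, fell from 80.5, 98.8 and 102 FPKM to 49.4, 46.7 and 49.5 FPKM (log2 fold change -0.94, adjusted p = 9.4e-05), and BMP6 had -1.38. Of the ligands that FSTL3 binds, the activin subunit genes INHBA and INHBB did not reach 1 FPKM. INHBB had 48, 37 and 28 fragments in CTR and 24, 13 and 23 in miR-8485. The myostatin gene MSTN, also under 1 FPKM, had 10, 9 and 8 fragments in CTR and 14, 24 and 33 in miR-8485. All miR-8485 libraries were below all CTR libraries for INHBB and above for MSTN, as for 6.03% and 8.24% of genes at this level. Neither was called. GDF11 was tested, with means of 1.26 FPKM in CTR and 1.58 FPKM in miR-8485, and was not called (adjusted p = 0.096). In the list of matrix proteases and their inhibitors, 10 of 20 genes were tested, with 5 called lower and 2 higher (70% called, against 59.6% of all tested genes) and a median of -0.15, which was -0.26 after rescaling to TPM. The inhibitors TIMP3 and TIMP2 fell by 1.86 and 1.57 on the log2 scale, TIMP2 from 51.4, 48.6 and 53.1 FPKM to 16.1, 16.6 and 18.8 FPKM. TIMP1, at 94 FPKM in CTR and 85.8 FPKM in miR-8485, was more abundant than both and was not called. The proteases MMP11 and ADAMTS7 had log2 fold changes of 1.30 and 1.05, and MMP11 rose from 2.29, 1.997 and 2.12 FPKM to 5.78, 5.21 and 5.18 FPKM. The adjusted p of these 4 genes lay between 4.1e-06 and 3.1e-04 in limma.

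**Figure D4:**
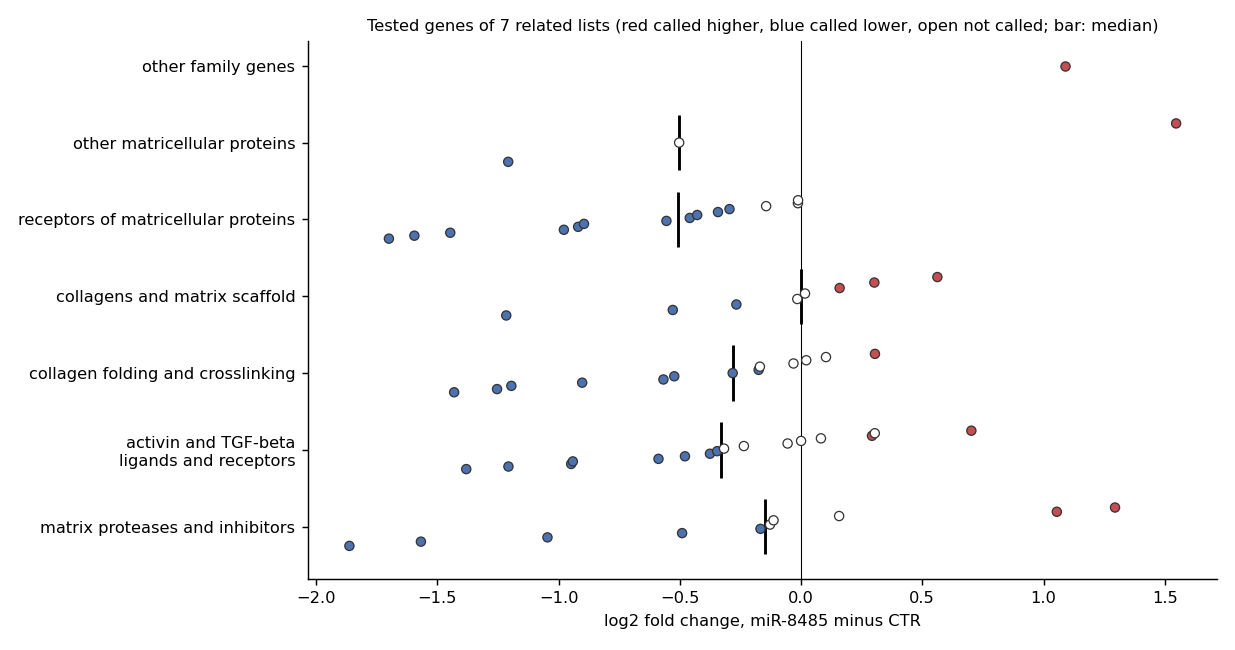
Log2 fold change (miR-8485 minus CTR, horizontal axis) of the tested genes in each of the 7 related lists (rows), filled where called and open where not, with the list median as a bar. The 14 receptors lie between -1.70 and -0.01, the scaffold genes on both sides of 0.

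Finally, the tested genes with the profile most like that of SPARC were sought, by the root mean square difference of log2(FPKM + 0.1), relative to the CTR mean, over the 6 libraries. The 5 nearest were CTSD (0.0889), CCND1 (0.121), GSN (0.125), SLC25A6 (0.196) and SLC31A1 (0.271). They encode the lysosomal protease cathepsin D, cyclin D1, gelsolin, a mitochondrial ADP/ATP carrier and a copper transporter. Their means fell from 36.8 to 3.94 FPKM for CTSD, from 216 to 23.7 FPKM for CCND1 and from 13.0 to 1.19 FPKM for GSN. Their CTR levels lay more than an order of magnitude apart. The like proportional loss follows from the way these genes were picked. The canonical 3′ UTRs of these 5 genes held no copy of ACACACG, and TGTGTGT was present 7 times in the 239 bases of GSN, 2 times in CCND1, 1 time in SLC31A1 and 0 times in CTSD and SLC25A6. For THBS1 the 5 nearest were POLR2D (0.0267), ACADSB (0.0304), ZNF3 (0.0314), TMEM131L (0.0333) and the pseudogene CLUHP3 (0.0398), all closer than the nearest to SPARC. ACADSB held 1 copy of TGTGTGT, and POLR2D, ZNF3 and TMEM131L held 0 copies. Likeness over 6 libraries in 2 groups reflects mainly the size of the change between the groups.

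**Figure D5:**
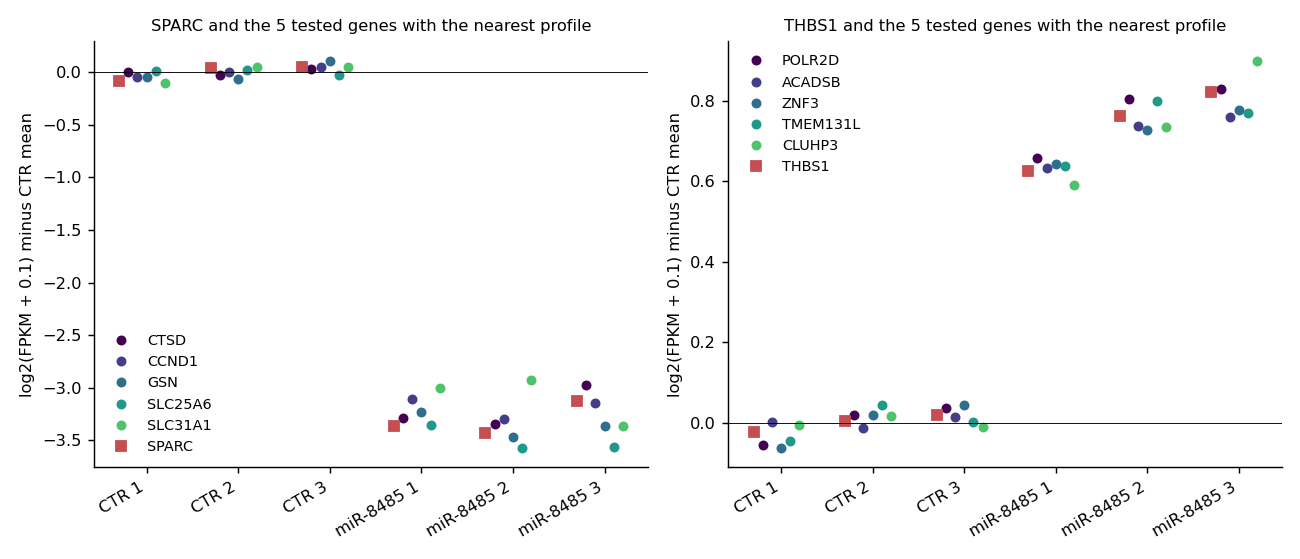
Log2(FPKM + 0.1) minus the CTR mean (vertical axis) in each of the 6 libraries (horizontal axis) for SPARC (left) and THBS1 (right) as red squares, with the 5 tested genes of nearest profile as colored points. All 6 genes on the left lie near -3 or below in the miR-8485 libraries, and all 6 on the right near 0.6 to 0.9.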

How the data were processed

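RNA-seq libraries of HCT116 cells (3 CTR, 3 miR-8485) were grouped by the sample labels, and 0 columns of values were left without a sample. Per the labels and the study's methods, the authors used fastp for trimming, HISAT2 2.0.5 for alignment (hg38) and featureCounts 1.5.0-p3 for counting, with no strand setting stated. The values deposited by the authors were FPKM, with no scaling between libraries. In every library, undoing the length and depth scaling gave whole fragments, within 0.01, for 100% of values above 0. The members and lists were chosen with earlier results of these data known. CCN genes were matched from older symbols by Ensembl ID. The 12349 genes averaging at least 1 FPKM were log-transformed as log2(FPKM + 0.1) and tested two-sided by limma 3.58.1 (R 4.3.3, variance trend, Benjamini-Hochberg adjustment). Values of members under this level were taken from a second model of the 31768 genes above 0. The tests were checked on simulated libraries. Named genes were the 10 members, the 4 called genes with the largest change per list and the 5 nearest profiles. Alternatives were other pseudocounts, filters and scalings, voom on recovered fragments, no variance trend, a replicate block and each library left out. Python 3.11.15 was used for the rest. 3′ UTRs came from the GENCODE release 44 transcripts. Same-numbered libraries of the groups did not deviate together (Pearson's r 0.067, 0.033 and -0.064, computed across genes). Fragment counts of each pair of libraries differed beyond sampling noise, with a chi-square per gene of 2.68 to 9.60 within and 54.4 to 62.4 between groups. CTR replicate 1 had the highest within-group values (9.60 against CTR replicate 2, 7.7 against CTR replicate 3). The other within-group pairs lay between 2.68 and 3.67. All 6 therefore counted as separate samples, which does not show that they were biologically independent.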

Additional observations from a re-analysis of the deposited data

How the results depend on the processing

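With the filter at a mean of 5 FPKM, which tests fewer genes, 2303 genes were called higher and 2417 lower, members numbered 1 higher (FSTL3) and 0 lower, activin and TGF-beta genes 3 lower, scaffold genes 1 lower, other family genes 0 higher, and proteases and inhibitors 1 higher and 3 lower. Rescaling to TPM left 1 member and 1 scaffold gene called higher, and 2 other matricellular genes were called lower, as in voom and the fit with no filter (2 each). Without the variance trend, 1 member was called higher. Without a filter, 2 members were called higher, but these were THBS1 and TNC, while FSTL3 was not called. With each library left out, 1 to 2 members were called higher and 2 lower. Of the other matricellular genes, 1 was called higher and 1 to 2 lower. The sign of 3 members near 0 turned: SMOC2 had 0.14 with a pseudocount of 0.01, 0.22 in voom and 0.15 without CTR replicate 1 (range with each library left out -0.17 to 0.15), SPOCK2 had -0.0046 after rescaling to TPM and -0.0082 without miR-8485 replicate 1 (range -0.0082 to 0.12), and SMOC1 had 0.0615 without miR-8485 replicate 2 or 3 (range -0.17 to 0.0615). COL18A1 lost its call after rescaling to TPM (adjusted p = 0.0626, range over alternatives 5.5e-04 to 0.0626). With the replicate block, 2 members were called higher and 2 lower, 3634 genes were called higher and 3754 lower, and TNC lost its call. Neither the labels nor the study's methods state a pairing of same-numbered libraries. The causes were not tested. Depth limits the 6 members with at most 26 fragments in any library.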

Other observations

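Several genes of the related lists, chosen for mention after their values were seen, add to the values above. Among the receptors called lower were the shared integrin chain ITGB1, with means of 67.5 FPKM in CTR and 35.7 FPKM in miR-8485, the growth factor receptor EGFR, with 8.99 and 4.78 FPKM, and CALR, the chaperone calreticulin that also acts as a receptor for thrombospondin at the cell surface, with 297 and 221 FPKM. The syndecan SDC1 stayed near its CTR level (22.5 and 22.3 FPKM, not called), while SDC4 was called lower (65.8 and 44.7 FPKM). Called higher in the activin and TGF-beta list and the collagen folding list were LTBP4, a latent TGF-beta binding protein (17.8 and 29.1 FPKM, log2 fold change 0.70), TGFBR1, a TGF-beta receptor (6.37 and 7.83 FPKM, 0.29), and CRTAP, a partner of the collagen prolyl 3-hydroxylase (19.3 and 23.9 FPKM, 0.30). Their libraries did not overlap between the groups.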
